A study of Solanum lycopersicum with 95 samples.

Results

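The 200 genes described here are those whose expression fell most over 4 days in fruits of tomato plants grown without added far-red light (No FR). They were chosen by a rule on these data: of the 34075 genes in the count table, 13822 had a mean of at least 5 CPM in No FR fruits at 0 h (CPM is a gene's count divided by the library total, times 1000000), 1269 of these had group means in the order 0 h > 24 h > 48 h > 96 h, and the 200 with the largest log2 ratio of (CPM + 1) at 0 h over (CPM + 1) at 96 h were kept. The 16 libraries used by the rule therefore describe the genes and test nothing. The other libraries, from fruits of plants whose leaves received far-red light (Leaf FR), from fruits at 6 and 12 h, and from leaves, were not used by it.

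Plants of the cultivar Foundation had all been kept under 258 µmol m-2 s-1 of photosynthetic light. In Leaf FR plants, 77 µmol m-2 s-1 of far-red light was added to the vegetative organs from 63 days after sowing, while the fruits of those plants never received it. No FR plants received no far-red light on any organ, and at 0 h both groups had had the same light. Fruits (the first of the second truss, 10 days after anthesis at 0 h) and a leaflet from the leaf above that truss were sampled 6 times up to 96 h, each time from other plants, in 4 replicates per organ, treatment and time (3 for leaves under Leaf FR at 12 h). A change over time is thus a difference between plants of 2 ages, and in whole organs fewer cells of a type cannot be told apart from less RNA per cell.

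Young tomato fruits at this age leave a phase dominated by cell division and enter one dominated by cell expansion, while starch and sugars accumulate. The tables used here do not pair the identifiers of the 200 genes with names or functions, so that each is given by its identifier, in which the digits before the g give the chromosome. No pathway, marker or promoter could therefore be assigned to a member.

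Fruit libraries held between 15631659 and 17957406 counts, and leaf libraries between 14769415 and 17845503. The organ labels were checked with 2 genes that the study names, and neither is a member. SUS3, a sucrose synthase (Solyc07g042550), had 65 to 188 CPM in fruits (median 118) and 9.18 to 74.3 CPM in leaves (median 21.6). AGPase L1, a large subunit of the enzyme that makes the precursor of starch (Solyc01g109790), had 141 to 422 CPM in fruits and 11.5 to 54.4 CPM in leaves. The ranges of SUS3 overlapped between organs, and those of AGPase L1 did not.

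In No FR fruits, the values that chose the genes ran from a log2 ratio of 3.98 at rank 1 to 0.646 at rank 200, with a median fall of 0.90 on the log2 scale from 0 to 96 h. At 0 h the members averaged between 5.08 and 4263 CPM in these fruits. Just inside the limit stood Solyc10g038080 (the last but one, 7.84 CPM at 96 h and 12.9 CPM at 0 h, log2 ratio of 0 h over 96 h 0.647) and Solyc01g074000 (rank 200, 152 and 238 CPM, 0.646). Just outside stood Solyc03g062700 (rank 201, 14.2 and 22.7 CPM, 0.646) and Solyc06g074790 (next below it, 89.5 and 140 CPM, 0.642). The limit thus cuts through a continuum. Of the 200 genes, 96 were at least 2-fold lower at 96 h than at 0 h in No FR fruits and 14 at least 4-fold lower.

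The members lie on all 12 chromosomes. Chromosome 1 held 35 of them (17.5%, against 13.4% of the genes past the 5 CPM limit), chromosomes 7 and 12 held 23 each (11.5%, against 7.72% and 6.33%), and chromosome 2 held 10 (5%, against 10.6%). These shares are a description. Some members are neighbours: 4 pairs have consecutive places in the table besides a group on chromosome 12, Solyc01g096730 with Solyc01g096740, Solyc03g122350 with Solyc03g122360, Solyc07g066040 with Solyc07g066050, and Solyc11g073250 with Solyc11g073260. The group on chromosome 12 consists of Solyc12g011010, Solyc12g011023, Solyc12g011030 and Solyc12g011033. The authors' counting divides reads that match several genes, so that the values of near-identical neighbours are uncertain.

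In fruits under Leaf FR, which the rule did not use, most members were lower after 4 days. At 96 h, 146 of the 200 genes were lower than at 0 h and none was higher by edgeR's quasi-likelihood test (adjusted p under 0.05), against 8.02% of all 18277 genes tested being lower. The median log2 fold change (Log2FC) of the members was −0.89, against 0.00 over all genes tested, and 178 of the members had an unadjusted p under 0.05. Of the 54 genes that did not pass, 53 also had a Log2FC below 0. DESeq2 called 165 lower. The count was sensitive to single libraries: it was 68 without replicate 4 of 0 h, 70 without replicate 1, 93 without replicate 2, 84 without replicate 4 of 96 h and 175 without replicate 3 of 0 h. With the replicate number as a block in the edgeR fit, the count was 17.

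The decline under Leaf FR was not limited to the genes of highest rank: 83 of ranks 1 to 100 and 63 of ranks 101 to 200 were called lower. In 119 members, all 4 Leaf FR fruits of 96 h lay below all 4 of 0 h, as in 9.77% of all genes tested. By group means, all but 1 of the 200 were lower at 96 h, against 51.3% of all genes past the count filter. Of the members, 81 were at least 2-fold and 22 at least 4-fold lower, counts not made for all genes. The sizes of the fall under both treatments were not compared by a test, since one of them chose the genes. The means followed the whole order 0 h > 24 h > 48 h > 96 h in 142 members (71%), against 13.1% of the 18712 genes past the count filter in these fruits.

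**Figure D1:**
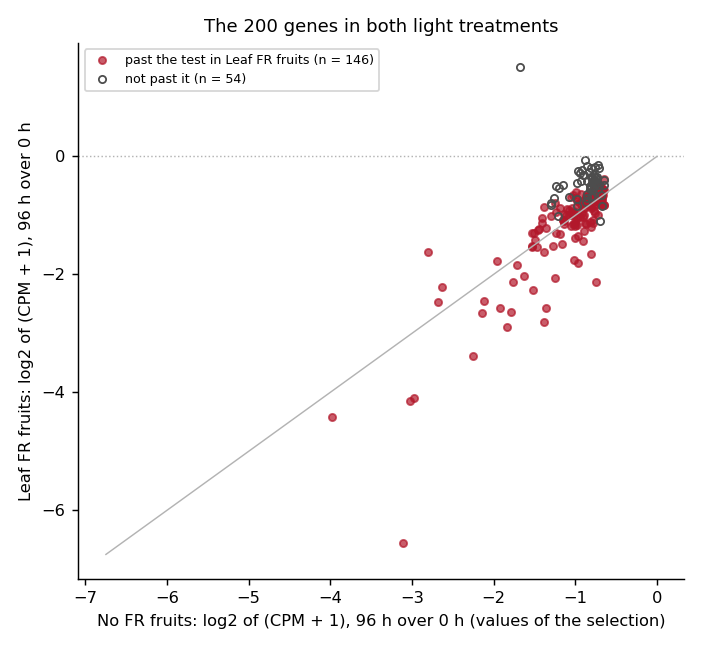
Log2 ratio of (CPM + 1) at 96 h over 0 h for the 200 genes, in Leaf FR fruits (vertical axis) and No FR fruits (horizontal axis, the values that selected the genes), from group means of 4 libraries each. Filled points passed edgeR's test in Leaf FR fruits (146) and open points did not (54), the grey diagonal marks equal change, and all points but 1 lie below 0 on the vertical axis.

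The gene of steepest fall, Solyc06g062370 (rank 1), had 0.0573, 0, 0.0587 and 0 CPM in Leaf FR fruits at 96 h, against 30.4, 33.3, 0.579 and 20.0 CPM at 0 h. All 96 h libraries lay below all 0 h libraries, although replicate 3 of 0 h was already far below its companions. It had 2 counts in all at 96 h and 1371 at 0 h, 709-fold more at 0 h with a 95% exact interval of 196 to 5862 for counting error only (edgeR adjusted p = 0.00902). In No FR fruits its 96 h libraries held 3.65, 0.297, 0.243 and 0.185 CPM, and those of 0 h 4.50, 2.62, 97.7 and 22.9 CPM. The spread at 0 h was thus wider than 10-fold in both treatments.

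Solyc08g014610 (rank 2) had 4.53, 1.59, 6.51 and 1.98 CPM at 96 h under Leaf FR, against 520, 674, 74.9 and 471 CPM at 0 h (Log2FC −6.89 ± 0.73, SE, edgeR adjusted p = 0.00484). No library of 96 h came near any of 0 h. In No FR fruits it held 75.8, 26.7, 42.9 and 13.3 CPM at 96 h, all above the Leaf FR fruits of that time. This comparison shares the libraries of the rule and was not tested. At 96 h, 4 members were lower and 4 higher under Leaf FR without overlap, counts not made for all genes.

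Solyc08g066890 (rank 3) had 0.515, 0.340, 0.939 and 0.495 CPM at 96 h, against 31.4, 13.2, 4.17 and 58.5 CPM at 0 h in Leaf FR fruits (Log2FC −5.52 ± 0.86, edgeR adjusted p = 0.00831). Solyc07g064600 (rank 4) had 4.12, 1.87, 7.28 and 4.46 CPM at 96 h, against 125, 103, 36.2 and 105 CPM at 0 h (Log2FC −4.37 ± 0.44, edgeR adjusted p = 0.00389). Neither gene overlapped between the times, and replicate 3 was the lowest of the 0 h libraries in both. The gene with the most counts among the first 10, Solyc09g008670 (rank 8), had 93.6, 72.2, 290 and 110 CPM at 96 h, against 1951, 1630, 517 and 1852 CPM at 0 h (Log2FC −3.38 ± 0.53, edgeR adjusted p = 0.00831). Here too the lowest value of 0 h, from replicate 3, exceeded every value of 96 h.

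The other genes of ranks 5 to 10 also passed the test in Leaf FR fruits, rank 5 by a narrow margin. Solyc09g091550 (rank 5) changed least of the first 10, with 13.3, 4.25, 28.6 and 10.5 CPM at 96 h, against 49.2, 34.7, 36.4 and 62.4 CPM at 0 h (Log2FC −1.68 ± 0.44, edgeR adjusted p = 0.0333). It did not pass without replicate 1, 2 or 4 of 0 h or replicate 1 or 4 of 96 h (edgeR adjusted p between 0.0609 and 0.0985). Solyc09g084490 (rank 6) averaged 37.1 CPM at 96 h and 209 CPM at 0 h, Solyc10g007800 (rank 7) 2.42 and 14.81 CPM, Solyc12g056600 (rank 9) 9.16 and 62.9 CPM, and Solyc05g051820 (rank 10) 3.02 and 21.0 CPM. Their Log2FC lay between −2.48 and −2.78. In none of these 5 genes did a 96 h library reach a 0 h library.

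**Figure D2:**
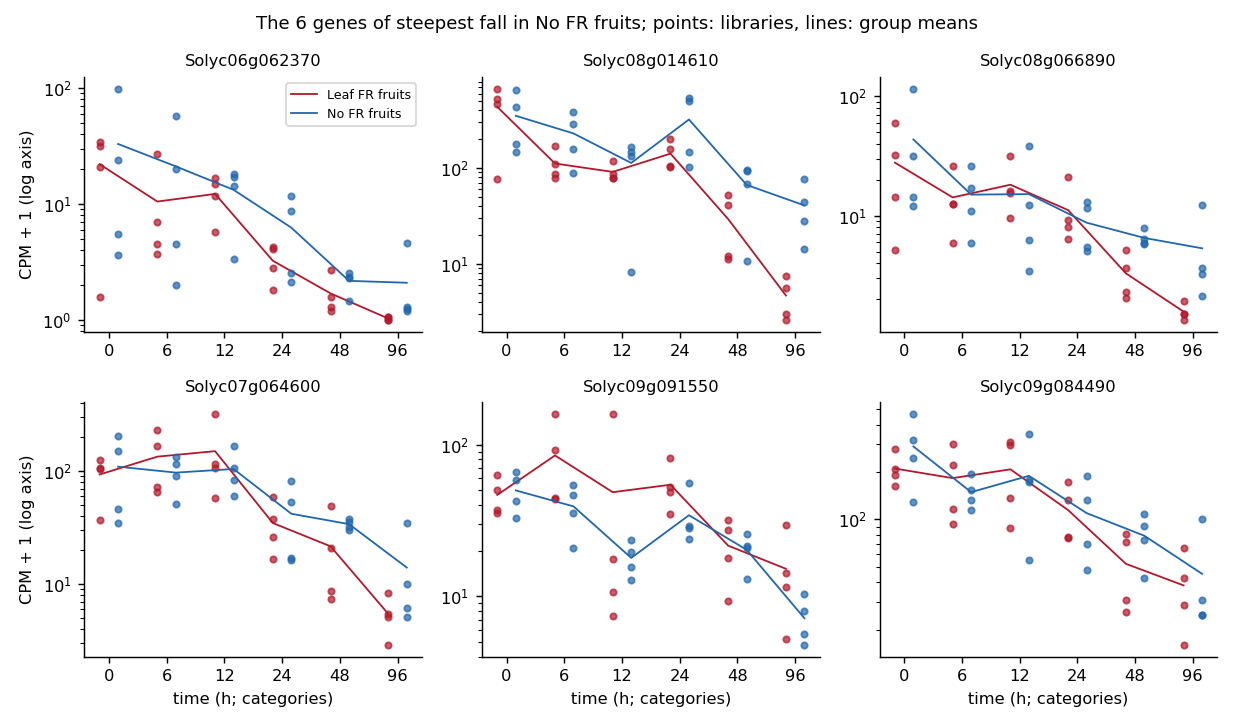
CPM + 1 on a log axis in fruits at 6 times (drawn as categories) for the genes of ranks 1 to 6. Points are libraries, lines join group means, and Leaf FR stands left of No FR at each time; the genes declined in both treatments, and libraries of one group often lie several-fold apart.

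Of the 3 steps in Leaf FR fruits, only the one between 24 and 48 h gave calls in the main edgeR fit (filtered, without a replicate block). At 24 h edgeR called no member lower than at 0 h (0% of all genes), with a median Log2FC of −0.15. By edgeR 11.5% had an unadjusted p under 0.05, against 4.26% of all genes, and DESeq2 called 1 member. Without replicate 3 of 0 h, 16 members were called in that step. At 48 h, 42 members were lower than at 24 h (edgeR, 1.03% of all genes were lower), with a median of −0.52 against 0.00 over all genes. Group means were lower in 200 of 200, a count not made for all genes. At 96 h edgeR called 0 of the members tested (all but 1) lower than at 48 h (0% of all genes), with a median of −0.22. By edgeR 32.7% had an unadjusted p under 0.05, against 16.4% of all genes. DESeq2 called 22 members lower and 1 higher. In that step 3 members were called without replicate 2 of 96 h, 1 without the filter and 19 with a replicate block. All 4 libraries of the later time lay below all 4 of the earlier one in 4 members from 0 to 24 h (0.757% of all genes), in 79 from 24 to 48 h (4.92%) and in 26 from 48 to 96 h (4.31%). Whether the steps differ from each other was not tested. Of the 42 members called from 24 to 48 h, 38 were also called from 0 to 96 h, as were 146 of all 200 members. Both comparisons are of separate libraries, and this overlap was not tested.

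The call between 24 and 48 h rested on few libraries. It counted 110 members without replicate 4 of 24 h, 15 without replicate 3 and 18 without replicate 4 of 48 h, and 0 without replicate 1, 2 or 3 of 24 h. Replicate 4 was the lowest of the 24 h libraries in 147 of the 200 genes. DESeq2 called 97, and 1 fit over all fruit libraries called 13. The largest Log2FC among the named genes in this interval were those of Solyc10g007800 (−2.61 ± 0.43, edgeR adjusted p = 0.0235) and Solyc08g014610 (−2.32 ± 0.47, edgeR adjusted p = 0.0371). Solyc10g007800 had 3.74, 3.51, 0.465 and 2.26 CPM at 48 h, against 19.1, 20.2, 13.2 and 8.25 CPM at 24 h.

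**Figure D3:**
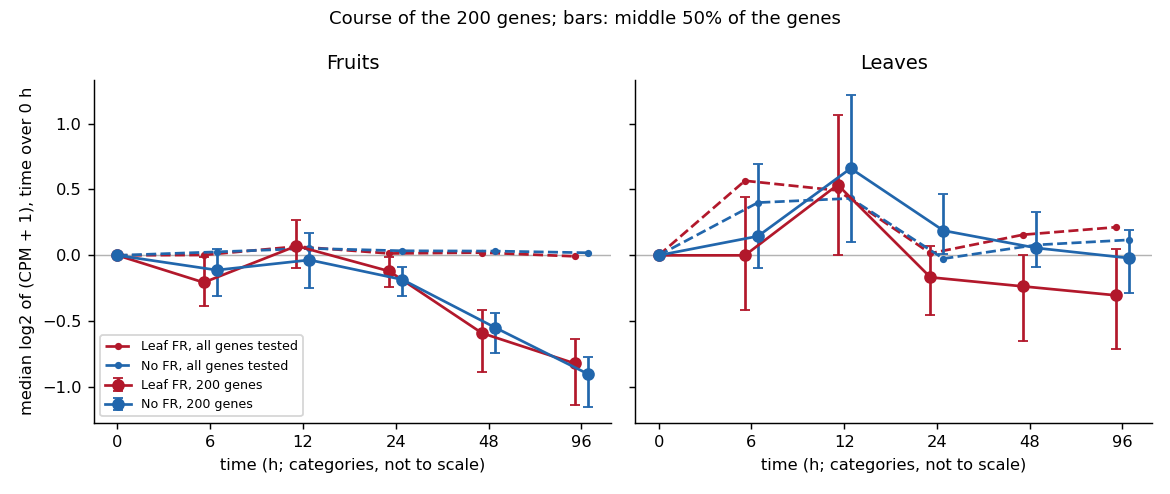
Median over the 200 genes of the log2 ratio of (CPM + 1) to 0 h, from group means, in fruits and in leaves, with bars for the middle 50% of the genes; dashed lines give the median over all genes past the count filter. In fruits the medians at 96 h were −0.82 under Leaf FR and −0.90 under No FR (the values of the selection), and in leaves −0.30 and −0.02. The 200 genes were not filtered, so that in leaves the solid and dashed lines are over unlike sets.

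The members that declined least under Leaf FR by Log2FC were Solyc06g035940 (rank 17), Solyc10g076180 (rank 108) and Solyc10g075100 (rank 115). Solyc10g076180 had 7.96, 3.46, 6.57 and 8.36 CPM at 96 h, against 6.09, 8.11, 7.18 and 6.13 CPM at 0 h (Log2FC −0.06 ± 0.25, edgeR adjusted p = 0.90). Solyc10g075100 had 2017, 890, 1462 and 1470 CPM at 96 h, against 1175, 1828, 2069 and 1484 CPM at 0 h (Log2FC −0.16 ± 0.25, edgeR adjusted p = 0.679). In both genes the libraries of the 2 times overlapped.

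Solyc06g035940 was the only member with a higher mean at 96 h under Leaf FR, with 180, 125, 5.46 and 59.3 CPM, against 15.1, 18.9, 87.7 and 4.95 CPM at 0 h (Log2FC 1.53 ± 0.94, edgeR adjusted p = 0.28). Its values did not follow time. Over the 48 fruit libraries they ran from 2.01 to 180 CPM, with 23 libraries at 50 CPM or more, 22 under 25 CPM and 3 between. In No FR fruits, the libraries at 50 CPM or more numbered 3 at 0 h, 2 each at 24 and 48 h and 1 at 96 h. High and low fruits matched high and low leaves of the same group and replicate number. Of the 23 fruit libraries at 50 CPM or more, 19 had a leaf library at 25 CPM or more, and of the 21 under 25 CPM with a leaf library, 20 had a leaf library under 25 CPM. At 24 h under No FR, for example, the fruits held 140, 12.5, 2.00 and 135 CPM and the leaves 41.0, 3.73, 1.83 and 41.5 CPM in replicates 1 to 4. Its pattern over libraries was examined after its values were seen and was not tested. The change from 0 to 96 h passed the test only without replicate 3 of 0 h (Log2FC 2.83, edgeR adjusted p = 0.0425).

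Members also varied jointly between libraries of a group outside the rule. In Leaf FR fruits at 0 h, replicate 3 was the lowest of 4 libraries in 176 of 200 members (88%), against 31.3% of all genes, and replicate 4 was the highest in 65%, against 26.5%. Replicate 4 of Leaf FR fruits at 24 h was the lowest in 73.5% (31.1%), and replicate 3 of No FR fruits at 12 h the highest in 81.5% (26.9%). In Leaf FR fruits, replicate 4 of 6 h was the lowest in 62% (33.1%) and replicate 2 of 12 h the highest in 51% (25.4%). In No FR fruits at 6 h, no library was the highest in more than 36% of the members. Replicate 2 was the lowest there in 46.5% (27.9%). The 200 values of a library are thus not independent of each other.

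Summed over the 200 genes, the members took 2.65 to 3.77% of the counts of Leaf FR fruits at 0 h (mean 3.29 ± 0.468%, SD, n = 4). The means were 2.79 ± 0.274% after 24 h, 2.00 ± 0.204% after 48 h and 1.81 ± 0.231% after 96 h. At 96 h the 4 libraries held 1.94, 1.47, 1.95 and 1.88%, all below the lowest library of 0 h. In leaves the members took between 0.387 and 1.09% of the counts of a library. Such a sum weights members by their level. The highest in the pooled Leaf FR fruits of 0 h were Solyc07g007750 (3886 CPM), Solyc07g007250 (2636 CPM) and Solyc11g022590 (2396 CPM).

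**Figure D4:**
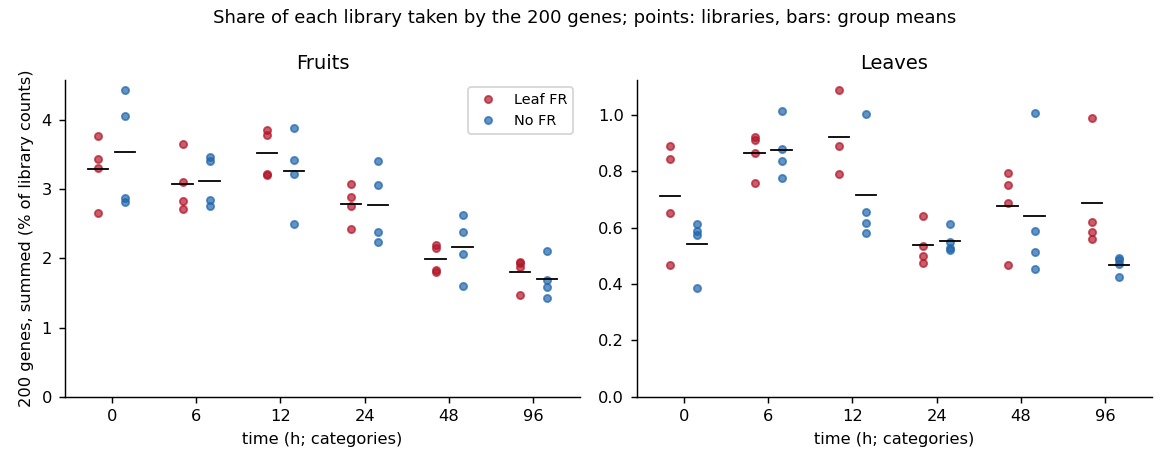
Counts of the 200 genes together as a percentage of each library's total (vertical axes from 0, on separate scales for fruits and leaves) at 6 times drawn as categories. Points are libraries and bars are group means, Leaf FR left of No FR; fruit libraries held 1.43 to 2.10% at 96 h and 2.65 to 4.43% at 0 h.

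The fruits of 6 and 12 h were taken later in the light period than the others, which were taken at one clock time. The members were chosen for a fall with age, so a comparison of 12 h with 24 h cannot tell clock time from that fall. From 0 to 12 h their median log2 ratio of (CPM + 1) was 0.07 under Leaf FR, as over all genes. Under No FR it was −0.03, against 0.05 over all genes. In Leaf FR fruits, 24 members were higher and 4 lower at 12 h than at 24 h (edgeR, against 3.87% and 4.53% of all genes), a comparison added after seeing the data. Of these, Solyc08g078940 (rank 51, named for its size after its values were seen) had 23.7, 22.4, 9.99 and 21.4 CPM at 12 h, against 68.2, 64.2, 61.8 and 62.7 CPM at 24 h (Log2FC −1.77 ± 0.21, edgeR adjusted p = 0.000441). No library of 12 h came near one of 24 h. No FR fruits held 14.4, 20.1, 30.0 and 14.6 CPM of it at 12 h and 61.5, 53.4, 54.2 and 36.9 CPM at 24 h. Solyc06g062370 was higher at 12 h than at 24 h, with 4.78, 10.6, 13.8 and 15.7 CPM, against 3.09, 0.799, 1.79 and 3.29 CPM (Log2FC 2.26 ± 0.41, edgeR adjusted p = 0.00645). Without replicate 3 of 24 h the 28 calls became 13, without replicate 1 or 4 of 24 h 18, and with 1 fit over all fruit libraries 15.

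Far-red light on the leaves did not move the members detectably in fruits at 6 or 12 h. At 6 h no member differed between Leaf FR and No FR fruits by edgeR (0% of all genes), with a median Log2FC of −0.08. By edgeR 5.5% had an unadjusted p under 0.05, against 3.38% of all genes, and DESeq2 called 0 members. At 12 h none differed either (edgeR, 0% of all genes), with a median of 0.08. Here 3% had an unadjusted p under 0.05 by edgeR, against 2.75% of all genes, and DESeq2 called 0 members. The Log2FC of single members ran from −1.07 to 1.33 at 6 h and from −0.34 to 1.47 at 12 h. At the times of the rule the values are given without a test: the median log2 ratio of Leaf FR over No FR fruits started at 0.00 (0 h) and was 0.09, −0.04 and 0.10 at the later mornings (24, 48 and 96 h).

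Most members were expressed more in fruits than in leaves. At 0 h, in plants assigned to Leaf FR, 151 of the 200 were higher in fruits than in leaves and 27 lower (edgeR, against 37.6% and 36.6% of all 18965 genes), and the median Log2FC of fruit over leaf was 2.77, against 0.04 over all genes. On the scale of CPM the median over all genes was 0.91 and that of the members 3.64, with genes under 3 counts in an organ set at 3, so that the members stood apart by a like amount on both scales. Fruits at 0 h under Leaf FR shared none of the rule's libraries, but the rule's limit of 5 CPM in fruits left out genes that are low there. The limit thus favours members higher in fruits, and the share among all genes past it was not counted.

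The highest Log2FC of fruit over leaf were those of Solyc08g065447 (rank 14), Solyc05g051820 (rank 10) and Solyc08g014610 (rank 2). Where a gene has hardly any leaf count, this order depends on the prior count of edgeR and ranks nothing. Solyc08g065447 had 34.8, 20.3, 12.4 and 39.3 CPM in fruits and no count in the 4 leaf libraries, and was at least 562-fold higher in fruits against a floor of 3 counts over the leaf libraries. Solyc05g051820 had 22.6, 19.8, 13.6 and 27.9 CPM in fruits, no count in leaves and a fold of at least 442 against that floor. Solyc08g014610 had 28313 counts in the fruit libraries together and 9 in the leaf libraries, a 3026-fold ratio of pooled CPM (edgeR adjusted p = 3.2e-06). Solyc04g055253 and Solyc08g078940, named for their counts after these were seen, had 5830 and 4697 counts in fruits, against 3 and 2 in leaves. Of all members, 28 averaged under 1 CPM in each of the 12 leaf groups. Together those 28 took 216 to 1426 CPM in fruit libraries and 1.75 to 15.3 CPM in leaf libraries, with 8 of them highest in replicate 4 of Leaf FR leaves at 24 h and 7 in replicate 2 of No FR leaves at 12 h.

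The lowest ratios belonged to Solyc12g088670 (rank 165), Solyc05g007980 (rank 178) and Solyc06g072350 (rank 41). Solyc12g088670 had 22.7, 23.3, 17.4 and 27.3 CPM in fruits at 0 h, against 407, 561, 501 and 276 CPM in leaves (Log2FC −5.13 ± 0.25, edgeR adjusted p = 7.53e-08). Solyc05g007980 had 15.9, 10.3, 5.21 and 15.2 CPM in fruits, against 167, 115, 75.7 and 173 CPM in leaves, and Solyc06g072350 31.7, 12.3, 24.7 and 20.9 CPM, against 200, 210, 130 and 323 CPM. None of the 3 overlapped between organs. Decline in fruits occurred on both sides. Of the 151 members higher in fruits, 113 were called lower at 96 h in Leaf FR fruits, and of the 27 lower there, 19. Over all 200 members 146 were called, so that both counts lie near the rate of the members. The shares among all genes were not counted. The 0 h fruit libraries are shared with the comparison of organs.

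**Figure D5:**
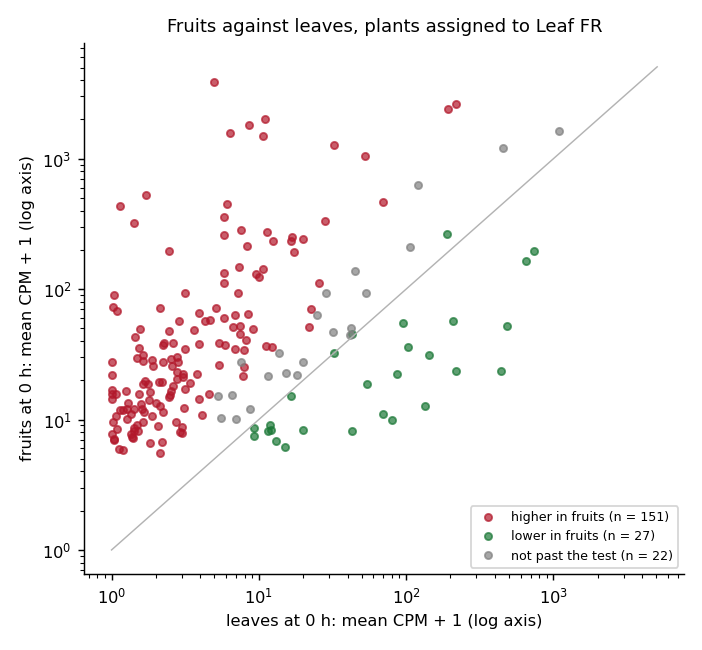
Mean CPM + 1 at 0 h in fruits (vertical log axis) and leaves (horizontal log axis) of plants assigned to Leaf FR, for the 200 genes, with the diagonal of equal level. Colours mark genes higher in fruits (151), lower in fruits (27) or not past edgeR's test (22); many points sit at the left edge, near 0 CPM in leaves.

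In leaves, 34 members passed the test over time under Leaf FR and none under No FR. Under Leaf FR, 31 of 160 members were lower at 96 h than at 0 h and 3 higher (edgeR, against 4.39% and 5.11% of all 17557 genes), with a median Log2FC of −0.91 against 0.01 over all genes. DESeq2 called 52 lower and 4 higher. Under No FR, 0 of the 155 members tested were lower or higher at 96 h by edgeR (0% of all genes in either direction), with a median of −0.21. By edgeR 19.4% had an unadjusted p under 0.05, near the 17.1% of all genes. DESeq2 called 8 members lower and 0 higher. The difference between the treatments in this change, tested as an interaction added after seeing the data, passed for 0 of 166 members (17.5% with an unadjusted p under 0.05, against 6.13% of all genes, DESeq2 called 6 lower and 1 higher, edgeR 0% of all genes lower and 0.0661% higher), with a median of −0.44. A difference of the leaves between treatments was therefore not shown.

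At 0 h, before any far-red light, many members already stood higher in leaves of plants assigned to Leaf FR. The median log2 ratio of Leaf FR over No FR leaves at 0 h was 0.19 over the members, against −0.08 over all genes past the count filter. That filter was not applied to the members here. By group means 154 members were higher there and 42 lower, a count not made for all genes. The part of these values in the change over time was not tested. Of the 31 members called lower in Leaf FR leaves, 27 were also called lower in Leaf FR fruits, as were 146 of all 200 members. The share among all genes called lower in those leaves was not counted, and this overlap was not tested. The 31 became 7 without replicate 1 of 0 h, 9 without replicate 2 or 3 of 0 h, and 17, 12 and 20 without replicates 1, 3 and 4 of 96 h.

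Solyc09g084490 (rank 6) showed the largest change in Leaf FR leaves, with 0.124, 0.665, 0.192 and 0.355 CPM at 96 h, against 312, 4.40, 4.60 and 101 CPM at 0 h (Log2FC −8.52 ± 1.66, edgeR adjusted p = 0.0218). At 0 h its leaf libraries fell into a high and a low pair. Under No FR it held 1.94, 61.5, 6.17 and 70.7 CPM at 96 h, against 6.18, 0.542, 9.12 and 7.81 CPM at 0 h (Log2FC 2.39 ± 1.08, edgeR adjusted p = 0.299). Solyc07g008570 (rank 16) had 0.0620, 0.302, 0.320 and 0.651 CPM at 96 h in Leaf FR leaves, against 33.7, 3.33, 3.47 and 15.4 CPM at 0 h (Log2FC −5.58 ± 0.96, edgeR adjusted p = 0.0174). Solyc06g062370 (rank 1) had 0.186, 0.0605, 0.192 and 1.19 CPM, against 24.8, 7, 1.64 and 35.1 CPM (Log2FC −5.58 ± 1.12, edgeR adjusted p = 0.0238). In all 3 genes the libraries of the 2 times were separate.

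The members that rose in Leaf FR leaves numbered 3, and all are named because the count is small. Solyc11g020960 (rank 67) had 22.9, 24.1, 32.7 and 24.8 CPM at 96 h, against 3.53, 8.20, 3.53 and 4.88 CPM at 0 h in leaves (Log2FC 2.16 ± 0.25, edgeR adjusted p = 0.0050). In the fruits of those plants it had 190, 192, 236 and 183 CPM at 96 h, against 419, 443, 308 and 609 CPM at 0 h (Log2FC −1.14 ± 0.18, edgeR adjusted p = 0.00836). No FR leaves held 2.21 to 9.39 CPM of it at these times. Solyc12g088670 rose in Leaf FR leaves too, to 2287, 6496, 1502 and 1688 CPM at 96 h, against 407, 561, 501 and 276 CPM at 0 h (Log2FC 2.49 ± 0.46, edgeR adjusted p = 0.0199). The third of these members was Solyc11g008440 (rank 112, Log2FC 1.42 ± 0.38, edgeR adjusted p = 0.0496), just under the threshold. All 3 were called lower at 96 h in Leaf FR fruits, but Solyc12g088670 narrowly (Log2FC −0.72, edgeR adjusted p = 0.0475), and it did not pass in 6 of the 8 fits with 1 library left out (edgeR adjusted p between 0.0643 and 0.136).

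Tested directly, the change from 0 to 96 h under Leaf FR was lower in fruits than in leaves for 11 members and higher for 7 (edgeR interaction, against 4.92% and 4.65% of all 19673 genes), with a median of −0.01 against −0.02 over all genes. The counts lie near the shares of all genes, and DESeq2 turned the balance, with 13 lower and 20 higher. All 200 members entered this fit, but 40 of them did not pass the filter in these leaves alone, and the calls were all among the other 160. The clearest difference was that of Solyc11g020960 (−3.33 ± 0.32, edgeR adjusted p = 8.69e-05). The count of lower members was 7 without replicate 1 or 4 of the 0 h fruits, and 7 without replicate 3 or 4 of the 96 h fruits.

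Within leaves, far-red light changed no member by edgeR at 6 h (0 of 162, 17.9% with an unadjusted p under 0.05, against 8.91% of all genes, DESeq2 called 6 lower and 6 higher, edgeR 0.365% of all genes) and none at 96 h (0 of 146, 15.8% with an unadjusted p under 0.05, against 11.4% of all genes, DESeq2 3 lower and 1 higher, edgeR 0.263% of all genes). At 6 h the median Log2FC was −0.05 and the members ran from −3.31 to 4.16. At 12 h, when no test was run, the members lay above 0 h by a median of 0.54 under Leaf FR and 0.66 under No FR on the log2 scale of (CPM + 1), and all genes by 0.49 and 0.43, so that most of that rise was shared by all genes on this scale.

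The 4 neighbouring members on chromosome 12 all had a Log2FC below 0 in Leaf FR fruits, and 2 of them passed the test. Of the group on chromosome 12, Solyc12g011010 (rank 36) had 168, 102, 164 and 198 CPM at 96 h in Leaf FR fruits, against 298, 303, 247 and 431 CPM at 0 h (Log2FC −1.0 ± 0.22, edgeR adjusted p = 0.0198), and Solyc12g011033 (rank 107) had a Log2FC of −0.79 ± 0.19 (edgeR adjusted p = 0.0246). Solyc12g011023 (rank 100) had a Log2FC of −0.31 ± 0.21 (edgeR adjusted p = 0.319) and Solyc12g011030 (rank 97) of −0.24 ± 0.29 (edgeR adjusted p = 0.601). The differences between these genes were not tested, and the 4 were named after their values were seen.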

How the data were processed

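RNA was sequenced from leaves and fruits in 95 libraries. Reads were filtered by the authors, mapped with Bowtie2 onto ITAG4.0 and turned into expected counts by RSEM. What they deposited holds 34075 genes, already in whole numbers, and was tested as it stands. A deposited table of normalised counts was not used, and 0 columns lacked a labelled sample. CPM are counts divided by the library total. Replicate libraries came from separate plants. None of the 141 pairs of libraries within a group agreed within sampling noise (lowest chi-square per degree of freedom 5.37).

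Groups were compared in R 4.3.3 by the quasi-likelihood test of edgeR 4.0.16 (TMM normalisation, limma 3.58.1), fitted to the compared groups only. A gene entered when 3 or more of these libraries held 10 counts or more, so that members low in leaves were left out there. P-values were adjusted by Benjamini-Hochberg over all genes tested, with a threshold of 0.05. The SE of a Log2FC was derived from its F value (Log2FC over the root of F). Intervals and floors cover counting error only. DESeq2 1.42.0 was an alternative, beside its size factors in edgeR, no filter, 1 fit over all groups, a replicate block and each replicate left out. Shares of all genes called were taken from edgeR, and none is given for DESeq2. The tests were run on simulated counts first.

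The members and lists were chosen with earlier results of these data known. Named genes are ranks 1 to 10, the 3 highest and 3 lowest Log2FC over time in Leaf FR fruits, the 3 highest and 3 lowest ratios of fruit to leaf at 0 h, up to 3 of the largest changes called in each light or leaf comparison, and ranks 199 to 202. Genes outside this rule are marked. Gene lists by function, promoters and markers were not analysed here, since no table used pairs the members with names.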

Additional observations from a re-analysis of the deposited data

Results flagged for a closer look

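The limit for a library far from its companions flags about 1 in 20 groups where values are independent and normal. The genes vary jointly and normality was not checked, so that the count below cannot be set against that rate. Of 143 groups of 4 libraries examined (the summed members in each group and the genes of ranks 1 to 10 in fruits), 12 held such a library. For the summed members these were replicate 1 of No FR leaves at 0 h (0.387% of counts, the others 0.574 to 0.612%), replicate 2 of Leaf FR fruits at 96 h (1.47%, the others 1.88 to 1.95%) and replicate 2 of Leaf FR leaves at 96 h (0.987%, the others 0.560 to 0.618%).

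Replicate 1 of No FR fruits at 96 h stood above its group in 4 of the genes: Solyc06g062370 (3.65 CPM, the others 0.185 to 0.297), Solyc08g066890 (11.3 CPM, the others 1.11 to 2.67), Solyc07g064600 (33.6 CPM, the others 4.15 to 9.10) and Solyc09g084490 (99.0 CPM, the others 23.7 to 30.0). Replicate 3 of Leaf FR fruits at 12 h stood above its group in Solyc09g091550 (158 CPM, the others 6.40 to 16.7) and Solyc12g056600 (74.5 CPM, the others 37.5 to 40.9). The last also had a low library in replicate 3 of Leaf FR fruits at 0 h (31.8 CPM, the others 69.6 to 75.3). Solyc06g062370 was high in replicate 2 of Leaf FR fruits at 6 h (25.8 CPM, the others 2.69 to 5.94), and Solyc09g091550 in replicate 3 of No FR fruits at 24 h (55.1 CPM, the others 22.7 to 27.9).

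The change from 0 to 96 h under Leaf FR differed between fruits and leaves in Solyc09g084490 (fruits less reduced than leaves, 6.03 on the log2 scale, edgeR adjusted p = 0.0312), Solyc11g020960 (−3.33, edgeR adjusted p = 8.69e-05) and Solyc03g113910 (−3.31, edgeR adjusted p = 0.0287), the largest 3 of the 18 differences that passed.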

How the results depend on the processing

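The median Log2FC of the members kept its sign under every alternative in 10 of 14 comparisons. It took either sign for light in fruits at 12 h (−0.0041 to 0.24) and in leaves at 6 h (−0.22 to 0.30) and 96 h (−0.29 to 0.08), and for the organ interaction (−0.20 to 0.19). Under DESeq2, the counts that moved were 1 member lower at 24 h than at 0 h, 97 from 24 to 48 h and 22 from 48 to 96 h in Leaf FR fruits, 8 lower in No FR leaves, 52 lower in Leaf FR leaves, 12 and 4 changed by light in leaves at 6 and 96 h, and 7 in the leaf interaction. Without the filter 1 member passed from 48 to 96 h and 1 each in leaves at 6 and 96 h. With 1 fit over all groups, 13 members passed from 24 to 48 h, 1 each in leaves at 6 and 96 h, and 15 between 12 and 24 h. The cause was not tested. With the replicate block, 17 members were lower at 96 h than at 0 h in Leaf FR fruits, 70 from 24 to 48 h, 19 from 48 to 96 h and 15 in Leaf FR leaves, 1 changed by light in leaves at 96 h and 48 between 12 and 24 h; fruits against leaves gave 157 higher and the interaction of organ and time 10 lower. The labels do not say that a replicate number pairs samples, and the numbers were not taken as pairs in the main tests. Same-numbered libraries of 96 and 0 h in Leaf FR fruits, from other plants, deviated with correlations of −0.31 to 0.06. For fruits and leaves of 0 h under Leaf FR, which may share plants, these were 0.08 to 0.22. Whether a number pairs the organs was not tested, and the tests between organs took their libraries as independent.

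Leaving out each replicate in turn gave 68 to 175 members lower at 96 h than at 0 h in Leaf FR fruits, 0 to 16 at 24 h (16 without replicate 3 of 0 h), 0 to 110 from 24 to 48 h, 0 to 3 from 48 to 96 h (3 without replicate 2 of 96 h), 0 to 0 in No FR leaves and for light in fruits at 6 and 12 h, 7 to 35 in Leaf FR leaves, 0 to 2 and 0 to 1 for light in leaves at 6 and 96 h, 145 to 154 for fruits above leaves, 7 to 16 in the organ interaction, 13 to 32 between 12 and 24 h and 0 to 1 in the leaf interaction. Of the 200 members, 179 were kept with TMM library sizes, 158 and 150 with limits of 10 and 1 CPM, 192 and 169 with pseudocounts of 0.1 and 5, and 124 to 193 with 1 replicate left out (124 without replicate 3 of No FR fruits at 0 h). Of 351 values of named genes under an alternative, 319 kept direction and side of the threshold, 24 became weaker, 5 stronger and 3 reversed: the Log2FC from 0 to 96 h of Solyc10g076180 was 0.043 without replicate 2 of 0 h and 0.17 without replicate 2 of 96 h, and that of Solyc10g075100 was 0.020 without replicate 2 of 96 h. With 1 replicate left out they ran from −0.21 to 0.17 and from −0.35 to 0.020.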

Other observations

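Among 150 members with at least 10 counts in 24 or more libraries of each organ, the library highest in fruits carried the replicate number of the library highest in leaves in a median of 3 of 11 groups with 4 libraries in both organs, the same as over all 16002 such genes. Solyc06g007610 (rank 72, named after its values were seen) had the most such groups among the members, 8 of 11, a number that 43 of the 16002 genes reached or exceeded. Solyc06g035940 matched in 5 of 11 groups for the highest and 7 of 11 for the lowest library. By the paper's methods the fruits and leaves of a group appear to share 4 plants. The labels do not say whether a fruit and a leaf of one number came from one plant.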
